A study of Drosophila melanogaster with 4 samples.

Results

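Mirtrons are short introns that serve as miRNA precursors. In Drosophila S2 cells, 8 of them (mir-1003, mir-1005, mir-1006, mir-1007, mir-1008, mir-1010, mir-1012 and mir-1016) were followed in small RNA libraries of cells lacking the exonuclease Nibbler (Nbr) and of the same cells given an Nbr construct. They were chosen by name, with earlier results of these data known. They are 8 of the 219 precursors in the authors' deposited table, with 16 arms in all. S2 is an embryonic cell line, and all 4 libraries came from S2 cells whose nbr gene was knocked out by CRISPR-Cas9. The Nbr(wt), NbrCTD and NbrCTD-GWp libraries came from knockout cells stably transfected with the construct of that name under the Act5C driver, and the nbrKO library from knockout cells with no construct. What CTD and GWp stand for is not stated in the labels, nor whether a line is a single clone. Each group held 1 library, so every comparison is between 2 libraries, has no replicate check and carries no p-value. Libraries of S2 cells with Nbr intact or with an empty construct were not analysed here.

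A canonical miRNA is cut from its primary transcript by the nuclear enzyme Drosha. A mirtron skips that cut: the spliceosome releases the intron as a lariat, which is debranched, folds into a hairpin and is diced into 2 arms. Its 5p arm therefore starts at the splice donor, and its 3p arm ends at or near the splice acceptor. In flies the terminal uridylyltransferase Tailor prefers hairpins that end in the AG of a splice acceptor, so mirtron 3p arms are known for untemplated uridine tails. Nbr is a 3′-to-5′ exonuclease that shortens miRNAs held by Argonaute, and it acts on the same end to which tails are added.

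The 8 hairpins were set against the BDGP6.54 annotation. Each of the 8 coincided, base for base, with a whole annotated intron of a protein-coding gene. With these 8 included, 30 of the 215 precursors of the table that the annotation names did so. mir-1003 lies at chr3R:24658605-24658660 on the plus strand, a 56 nt intron of CG6695. mir-1005 lies at chr2L:4343696-4343756 on the plus strand, a 61 nt intron of Atet, which encodes an ABC transporter. mir-1006 lies at chr2L:16724795-16724858 on the minus strand, a 64 nt intron of VhaSFD, a subunit gene of the vacuolar proton pump. mir-1007 lies at chrX:21296385-21296449 on the minus strand, a 65 nt intron of Abca3, also an ABC transporter gene. mir-1010 lies at chr3R:22292879-22292949 on the plus strand, a 71 nt intron of SKIP. mir-1012 lies at chr3R:26861349-26861407 on the minus strand, a 59 nt intron of Lerp, the gene of a lysosomal enzyme receptor. The remaining 2 lie on chromosome arm 2R, mir-1008 in a 57 nt intron of CG18004 and mir-1016 in a 58 nt intron of Opa1, a gene of mitochondrial fusion. For mir-1008 an alternative intron of 75 nt is annotated as well.

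The table gives the first 7 bases of each 5′ end, which show the splice donor directly. They are printed for the 5p arms of the 6 mirtrons outside 2R, with the GT of the donor in capitals.
miR-1003-5p: GTgggta
miR-1005-5p: GTgagtt
miR-1006-5p: GTgagtt
miR-1007-5p: GTaagca
miR-1010-5p: GTaagtg
miR-1012-5p: GTgggta
All 8 mirtron 5p arms, those on 2R included, started with GT. The same start was found in 8 of the 168 precursors with a 5p row that are annotated and are not whole introns (4.76%). It was also found in 17 of the 18 other whole-intron precursors with a 5p row (94.4%).

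The 3p arms carry most of the reads, and bases 2 to 7 of a miRNA are the core of the seed that pairs with targets. They are in capitals here for the same 6 mirtrons, and miR-1010-3p was listed with 2 different 5′ ends.
miR-1003-3p: tCTCACA
miR-1005-3p: tCTGGAA
miR-1006-3p: tAAATTC
miR-1007-3p: tAAGCTC
miR-1010-3p, upstream end: gTTTCAC
miR-1010-3p, downstream end: tTTCACC
miR-1012-3p: tTAGTCA
No seed core was shared among these 6 mirtrons at their 3p arms. miR-1003-3p had the same first 7 bases as miR-1004-3p, another mirtron arm, and miR-1008-3p the same as a listed 5′ end of miR-2a-2-3p. In the table, the distance from the 5′ end of the 5p arm to a listed 5′ end of the 3p arm equalled the annotated distance from the first intron base to the 3p arm in 8 of 8 mirtrons. It was 34 nt for mir-1003, 35 nt for mir-1008 and 42 nt for mir-1007. The annotated 3p arm ends on the last intron base in 6 of the 8. In the other 2, mir-1007 and mir-1008, it ends 1 base short of it.

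The deposited values stand on 24005045 to 32488012 reads per library, of which 12780303 to 19639187 fell in 261 miRNA arms. Each read is 1 small RNA, so no length correction was made, and levels are given in miRNA RPM, which is RPM computed over the reads in those 261 arms alone. The 8 mirtrons took 56616 reads in Nbr(wt) cells, 57325 in NbrCTD cells, 54148 in NbrCTD-GWp cells and 39104 in nbrKO. These were 0.288% of miRNA reads in Nbr(wt) cells, 0.397% in NbrCTD cells, 0.314% in NbrCTD-GWp cells and 0.306% in nbrKO. Of 16 arms, 11 reached 100 reads in every library, 7 from the 3p side and 4 from the 5p side, and these are called measured. The 6 miRNAs listed as common in S2 cells, bantam-3p among them, had at least 7813 miRNA RPM in each library. The 10 markers of other fly cells, from muscle, neurons, late stages, early embryo, ovary and testis, summed to 154 miRNA RPM in Nbr(wt) cells, 139.7 in NbrCTD cells, 124 in NbrCTD-GWp cells and 210.4 in nbrKO. The highest single marker among them had 120.7 in Nbr(wt) cells, 100.3 in NbrCTD cells, 88.9 in NbrCTD-GWp cells and 142.5 in nbrKO. Intervals in the text are exact 95% intervals (Clopper-Pearson for shares, Poisson for levels) and cover counting error only.

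miR-1003-3p was the leading mirtron product in all 4 libraries and held 47.4% to 57.8% of mirtron reads. Its level was 1667 miRNA RPM in Nbr(wt) cells, 1973 in NbrCTD cells and 1752 in NbrCTD-GWp cells, against 1449 in nbrKO. It ranked 37 to 39 among the 261 arms. miR-1006-3p followed in Nbr(wt) and nbrKO, with 478 miRNA RPM in Nbr(wt) cells, 662 in NbrCTD cells and 449 in NbrCTD-GWp cells, against 552 in nbrKO. Neither arm passed the threshold for a different level, which was at least 2-fold on the log2(miRNA RPM + 1) scale with intervals apart.

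miR-1008-3p had its highest level in NbrCTD cells. It had 799.8 miRNA RPM in NbrCTD cells (95% interval 785 to 815) and 374 in Nbr(wt) cells (365 to 383), and it was called higher in NbrCTD cells than in Nbr(wt) cells, with a log2 fold of 1.09. With NbrCTD-GWp it had 472, and in nbrKO 403, so that the log2 fold of NbrCTD over nbrKO was 0.99, just short of the threshold. That side of the threshold depends on scaling: with the authors' RPM the log2 folds are 0.95 over Nbr(wt) and 1.02 over nbrKO. The level in a culture does not tell fewer cells making an arm from less of it in each cell.

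miR-1016-3p was low in 1 library. It had 38.4 miRNA RPM in Nbr(wt) cells (35.7 to 41.2), 161 in NbrCTD cells (155 to 168), 154 in NbrCTD-GWp cells (149 to 160) and 139 in nbrKO (133 to 146). The Nbr(wt) value lay well below the other 3, whose intervals spanned 133 to 168. Its level in Nbr(wt) cells was 3.62-fold lower than in nbrKO, a log2 fold of -1.83. NbrCTD and NbrCTD-GWp were 4.21-fold and 4.02-fold higher than Nbr(wt), ranking 1 and 2 among the higher folds of the 123 arms tested in their comparisons. The other arm of the hairpin, miR-1016-5p, had 1.68 miRNA RPM in Nbr(wt) cells, 5.19 in NbrCTD cells, 6.14 in NbrCTD-GWp cells and 6.02 in nbrKO, so both arms were lowest in Nbr(wt) cells.

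miR-1012-5p was high in nbrKO. It had 35.03 miRNA RPM in Nbr(wt) cells (32.5 to 37.8), 38.8 in NbrCTD cells (35.7 to 42.2) and 35.6 in NbrCTD-GWp cells (32.8 to 38.5), against 148 in nbrKO (141 to 154). The 3 construct libraries overlapped one another and nbrKO lay far above them. The level was 4.21-fold lower in Nbr(wt) cells, 3.80-fold lower in NbrCTD cells and 4.15-fold lower in NbrCTD-GWp cells, the fifth largest fall among 123 arms in each comparison. All 3 comparisons use the same nbrKO library. miR-1012-3p, from the same hairpin, differed by less: 151 miRNA RPM in Nbr(wt) cells, 151 in NbrCTD cells and 133 in NbrCTD-GWp cells, against 208 in nbrKO, with no call.

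Of the remaining measured arms, miR-1007-3p had 72.3 to 99.4 miRNA RPM over the 4 libraries. miR-1003-5p had 20.5 to 28.9, miR-1005-3p 10.9 to 19.4, miR-1008-5p 7.18 to 14.9 and miR-1006-5p 9.27 to 12.5. None of them was called in any comparison at the main settings. miR-1008-5p was 2.07-fold higher in NbrCTD cells (13.0 to 17.0) than in Nbr(wt) cells (6.04 to 8.47), with intervals apart. With the pseudocount of 1 its log2 fold was 0.96, short of the threshold, and with a pseudocount of 0.1 it was called. The 3p arm of the same hairpin was called higher in that comparison.

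**Figure D1:**
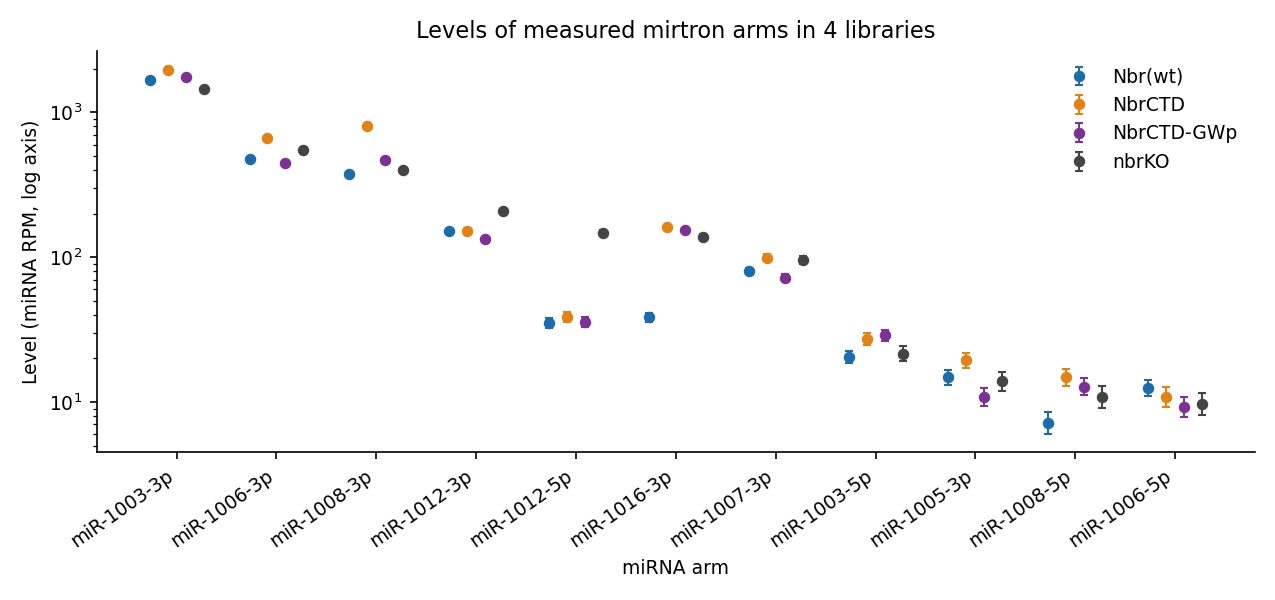
Level of the 11 measured mirtron arms in each library, in miRNA RPM on a log axis, with exact 95% Poisson intervals as bars. miR-1003-3p leads at 1449 to 1973, miR-1012-5p is high only in nbrKO (148) and miR-1016-3p is low only in Nbr(wt) cells (38.4).

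In counts, 2 of the 11 measured mirtron arms were lower in level in Nbr(wt) cells than in nbrKO and 0 were higher, where 25.2% and 6.5% of all 123 arms were. With NbrCTD 1 was lower and 0 were higher, beside 15.4% and 8.94% of all arms. With NbrCTD-GWp 1 was lower and 0 were higher, beside 17.1% and 8.13%. Between constructs, 2 were higher and 0 lower in NbrCTD cells than in Nbr(wt) cells (6.5% and 0.813% of all arms), and 1 was higher and 0 lower in NbrCTD-GWp cells than in Nbr(wt) cells (6.5% and 0.813%). None was called between NbrCTD-GWp and NbrCTD, where 4.07% of all arms were higher and 3.25% lower. The median log2 fold of the 11 arms against nbrKO was -0.21 in Nbr(wt) cells, 0.26 in NbrCTD cells and -0.06 in NbrCTD-GWp cells. Over all 123 arms it was -0.38 in Nbr(wt) cells, -0.11 in NbrCTD cells and -0.21 in NbrCTD-GWp cells.

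The 3′ ends were followed through tailed share, the share of an arm's reads whose 5′ part matches the genome and whose 3′ end carries added bases. The column headers do not spell out the kinds of read, and this reading of them was assumed and not tested. An added base that equals the first base of the next exon would count as a genome match, and this was not examined. The 3p arms of these 8 mirtrons were mostly well tailed. The 8 were chosen with earlier results of these data known, so what follows describes these arms and not mirtrons as a class. The 3 measured 3p arms of other whole-intron precursors are counted among the other 3p arms here. Of them, miR-1009-3p reached at most 1.66% and miR-2535b-3p 2.64%, while miR-1013-3p reached 5.77% in NbrCTD cells. The median tailed share over the 7 measured 3p arms of the 8 mirtrons was 9.80% in Nbr(wt) cells, 10.3% in NbrCTD cells, 10.0% in NbrCTD-GWp cells and 12.7% in nbrKO. Over the 53 other 3p arms it was 2.17% in Nbr(wt) cells, 3.28% in NbrCTD cells, 2.56% in NbrCTD-GWp cells and 3.12% in nbrKO. Over all 114 measured arms it was 2.05% in Nbr(wt) cells, 2.73% in NbrCTD cells, 2.25% in NbrCTD-GWp cells and 3.01% in nbrKO. In each library 6 of the 7 mirtron 3p arms had a share of at least 5%, against 12 of the 53 other 3p arms in Nbr(wt) cells, 18 in NbrCTD cells, 14 in NbrCTD-GWp cells and 19 in nbrKO. The 4 measured mirtron 5p arms had medians of 3.04% in Nbr(wt) cells, 1.496% in NbrCTD cells and 1.68% in NbrCTD-GWp cells, against 2.11% in nbrKO.

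**Figure D2:**
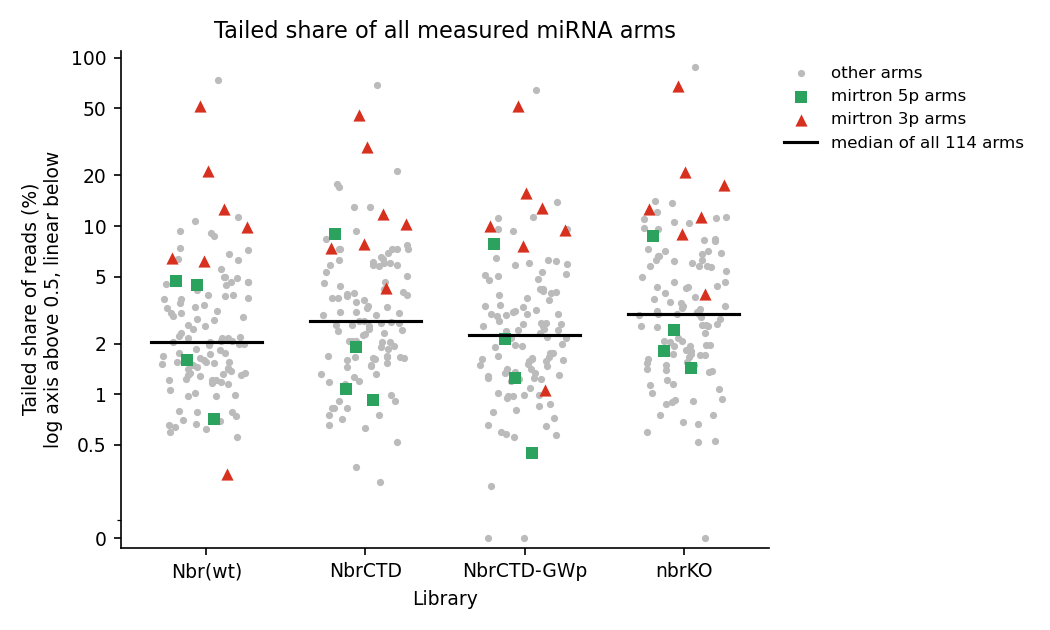
Tailed share of the 114 measured arms in each library, on an axis that is logarithmic above 0.5% and linear below. Triangles are mirtron 3p arms, squares mirtron 5p arms, grey points other arms and the black line the median of all arms (2.05% to 3.01%), above which at least 6 of the 7 mirtron 3p arms lie in every library.

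miR-1008-3p was the second most tailed of the 114 arms in all 4 libraries. Its tailed share was 51.5% in Nbr(wt) cells (50.3 to 52.6), 45.4% in NbrCTD cells (44.5 to 46.3) and 51.4% in NbrCTD-GWp cells (50.3 to 52.5), against 68.0% in nbrKO (66.7 to 69.3). nbrKO stood above every construct's library, NbrCTD below the other 2, and Nbr(wt) and NbrCTD-GWp overlapped. Against nbrKO the difference was -16.5 percentage points in Nbr(wt) cells (Newcombe 95% interval -18.2 to -14.8), -22.6 in NbrCTD cells (-24.1 to -21.0) and -16.6 in NbrCTD-GWp cells (-18.3 to -14.9). The level of tailed reads was 192 miRNA RPM in Nbr(wt) cells, 363 in NbrCTD cells, 243 in NbrCTD-GWp cells and 274 in nbrKO. That of untailed reads was 182 in Nbr(wt) cells, 437 in NbrCTD cells and 229.5 in NbrCTD-GWp cells, against 129 in nbrKO. With NbrCTD both kinds of read were therefore above nbrKO, 1.33-fold for tailed and 3.39-fold for untailed reads.

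miR-1007-3p ranked 3 of 114 in every library, and it differed between the constructs in direction. Its tailed share was 21.2% in Nbr(wt) cells (19.2 to 23.3), 29.4% in NbrCTD cells (27.0 to 31.8) and 15.6% in NbrCTD-GWp cells (13.7 to 17.8), against 20.9% in nbrKO (18.7 to 23.3). Nbr(wt) and nbrKO overlapped, NbrCTD lay above them and NbrCTD-GWp below. The direct difference of NbrCTD-GWp from NbrCTD was -13.7 points (-16.8 to -10.6). Tailed reads stood at 11.3 miRNA RPM in NbrCTD-GWp cells and 29.2 in NbrCTD cells, while untailed reads stood at 61.0 in NbrCTD-GWp cells and 70.2 in NbrCTD cells. At 99% intervals the call of NbrCTD-GWp against nbrKO was lost. miR-1007-3p and miR-1008-3p, the 2 most tailed of the 7 measured 3p arms, are also the 2 whose annotated 3p end lies 1 base short of the intron end. That of miR-1010-3p, which was not measured, lies on the intron end. This arm had 41.7% tailed of 24 reads in Nbr(wt) cells, 25.0% of 12 in NbrCTD cells and 57.1% of 21 in nbrKO. In NbrCTD-GWp cells its upstream end had 81.8% of 11 reads. Whether end position and tailing are linked was not tested.

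miR-1012-3p had a lower tailed share with every construct. The values were 9.80% in Nbr(wt) cells (8.75 to 10.9), 10.3% in NbrCTD cells (9.08 to 11.7) and 9.53% in NbrCTD-GWp cells (8.36 to 10.8), against 17.4% in nbrKO (16.0 to 18.9). The 3 construct libraries overlapped, and all lay below nbrKO. Relative to nbrKO, tailed reads were 2.44-fold and untailed reads 1.26-fold lower in Nbr(wt) cells, 2.32-fold and 1.27-fold lower in NbrCTD cells, and 2.87-fold and 1.43-fold lower in NbrCTD-GWp cells.

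miR-1006-3p gave an ordered set of values. Its tailed share was 6.44% in Nbr(wt) cells (5.95 to 6.95), 7.40% in NbrCTD cells (6.88 to 7.94) and 10.0% in NbrCTD-GWp cells (9.39 to 10.7), against 12.7% in nbrKO (11.9 to 13.5). Nbr(wt) and NbrCTD overlapped by a narrow margin, and NbrCTD-GWp lay between them and nbrKO. The difference of NbrCTD-GWp from Nbr(wt) was 3.61 points (2.78 to 4.45), and from NbrCTD 2.65 points (1.81 to 3.51). With a log2 odds ratio of at least 0.5 also required, the calls of NbrCTD-GWp against nbrKO and against NbrCTD were lost.

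miR-1003-3p, with the most reads and so the narrowest intervals, had 6.22% in Nbr(wt) cells (5.97 to 6.49), 7.77% in NbrCTD cells (7.46 to 8.09) and 7.59% in NbrCTD-GWp cells (7.29 to 7.89), against 8.92% in nbrKO (8.51 to 9.34). Nbr(wt) was lowest, NbrCTD and NbrCTD-GWp overlapped, and nbrKO was highest. The calls of NbrCTD and NbrCTD-GWp against nbrKO rest on small differences, -1.14 points for NbrCTD (-1.66 to -0.63) and -1.33 points for NbrCTD-GWp (-1.84 to -0.82). Both were lost where a log2 odds ratio of at least 0.5 in size was also required.

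miR-1016-3p, whose level was 3.62-fold lower in Nbr(wt) cells, did not follow in tailed share. It had 12.6% in Nbr(wt) cells (10.3 to 15.2), 11.8% in NbrCTD cells (10.5 to 13.2) and 12.7% in NbrCTD-GWp cells (11.5 to 14.1), against 11.3% in nbrKO (9.88 to 12.9). All 4 intervals overlapped. Tailed and untailed reads were lower in Nbr(wt) cells by similar factors, 3.25-fold and 3.67-fold against nbrKO.

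Among the 7 measured 3p arms of the 8 mirtrons, miR-1005-3p alone stayed under 5%, on 178 to 291 reads. Tailed reads numbered 1 of 291 in Nbr(wt) cells, 12 of 280 in NbrCTD cells and 2 of 188 in NbrCTD-GWp cells, against 7 of 178 in nbrKO. The shares were 0.344% in Nbr(wt) cells (0.0087 to 1.90), 4.29% in NbrCTD cells (2.23 to 7.37), 1.06% in NbrCTD-GWp cells (0.129 to 3.79) and 3.93% in nbrKO (1.60 to 7.93). Of its comparisons, only NbrCTD against Nbr(wt) had intervals apart, which overlapped at 99%. Against nbrKO the intervals of the shares overlapped, although the difference of Nbr(wt) was -3.59 points with a Newcombe interval of -7.56 to -1.03, on 1 and 7 tailed reads.

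**Figure D3:**
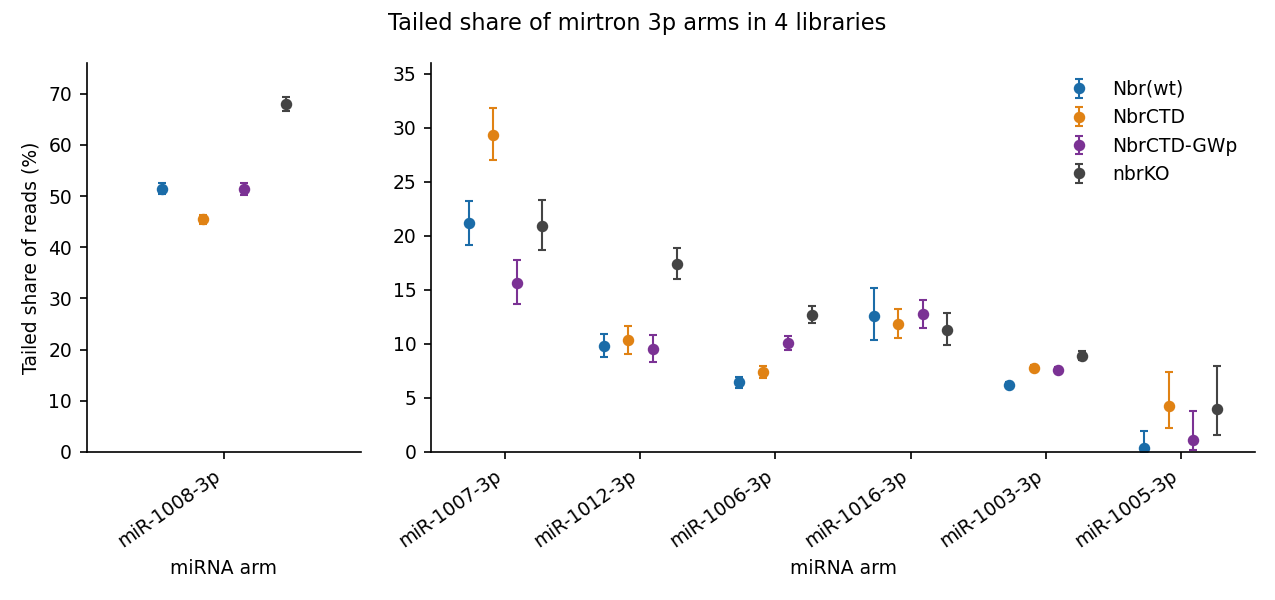
Tailed share of the 7 measured mirtron 3p arms by library, in percent, with exact 95% intervals as bars. miR-1008-3p has its own axis (45.4% to 68.0%), and nbrKO is highest for miR-1008-3p, miR-1012-3p, miR-1006-3p and miR-1003-3p, while miR-1007-3p is highest in NbrCTD cells (29.4%).

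**Figure D4:**
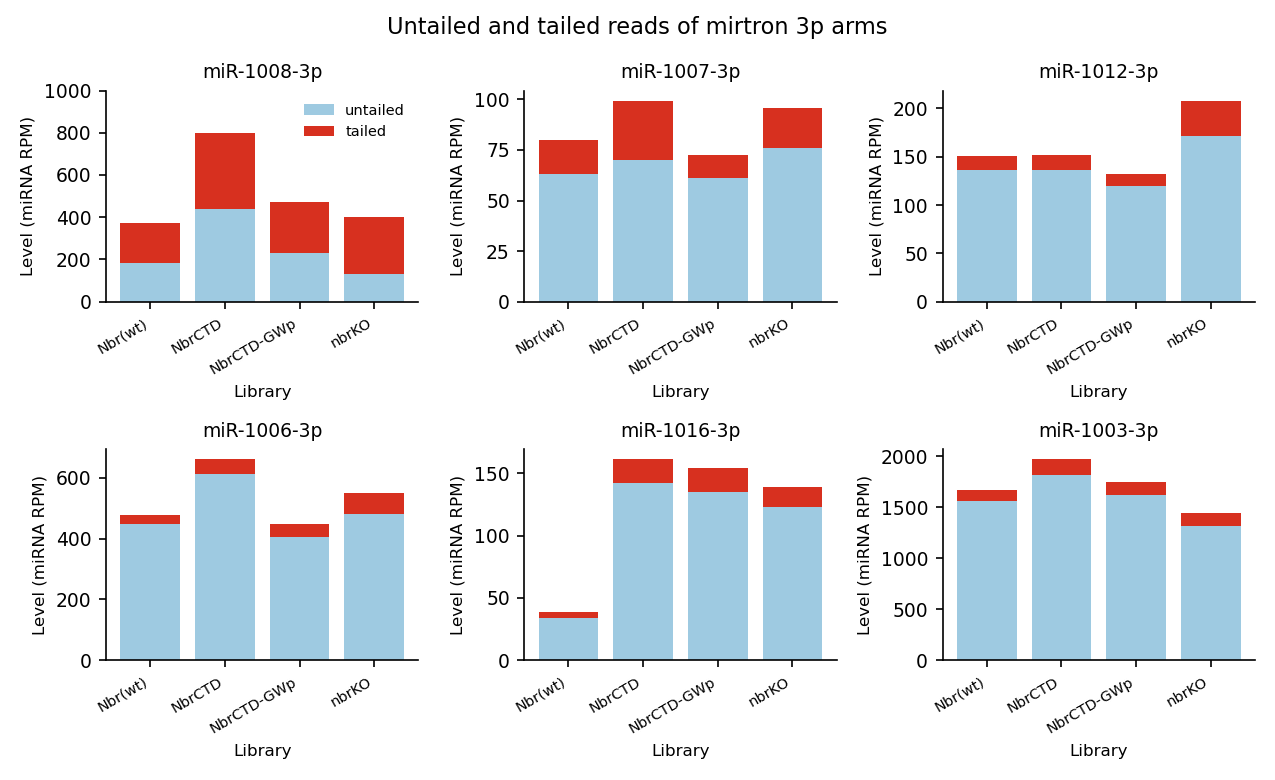
Level of untailed (blue) and tailed (red) reads of 6 mirtron 3p arms in each library, stacked, in miRNA RPM from 0. The untailed part of miR-1008-3p is 437 in NbrCTD cells and 129 in nbrKO, and both parts of miR-1016-3p are smallest in Nbr(wt) cells.

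Among the measured 5p arms, miR-1003-5p carried the most tails, at 4.73% in Nbr(wt) cells (2.87 to 7.28), 8.91% in NbrCTD cells (6.28 to 12.2) and 7.83% in NbrCTD-GWp cells (5.63 to 10.6), against 8.70% in nbrKO (5.65 to 12.7). miR-1012-5p stayed between 1.07% and 2.12%, miR-1006-5p between 1.25% and 4.49% and miR-1008-5p between 0.455% and 1.44%. All intervals of these 4 arms overlapped across libraries. For miR-1003-5p the difference of Nbr(wt) from nbrKO was nevertheless -3.97 points (Newcombe interval -8.23 to -0.204). That of NbrCTD from Nbr(wt) was 4.18 points (0.665 to 7.82). The Newcombe intervals of NbrCTD and NbrCTD-GWp against nbrKO, and of NbrCTD-GWp against Nbr(wt), spanned both signs. For miR-1008 the 2 arms of the hairpin thus differed widely, with 45.4% or more on the 3p arm and 1.44% or less on the 5p arm.

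Counted over the 11 measured mirtron arms, 4 had a lower tailed share in Nbr(wt) cells than in nbrKO and 0 a higher one, where 48.2% and 5.26% of all 114 arms were called. The 4 were miR-1003-3p, miR-1006-3p, miR-1008-3p and miR-1012-3p. With NbrCTD the same 4 were lower and miR-1007-3p was higher, beside 32.5% lower and 18.4% higher over all arms. With NbrCTD-GWp 5 were lower, these 4 and miR-1007-3p, and 0 were higher, beside 44.7% and 7.02%. The mirtron counts are near these background shares, and the 3 comparisons share the nbrKO library. The median log2 odds ratio of the 11 arms was -0.77 in Nbr(wt) cells, -0.34 in NbrCTD cells and -0.51 in NbrCTD-GWp cells, and over all 114 arms it was -0.53 in Nbr(wt) cells, -0.18 in NbrCTD cells and -0.45 in NbrCTD-GWp cells.

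Set directly against Nbr(wt), NbrCTD had a higher tailed share in 3 mirtron arms, miR-1003-3p, miR-1005-3p and miR-1007-3p, and a lower one in miR-1008-3p, where 39.5% of all arms were higher and 0.877%, which is miR-1008-3p alone, were lower. NbrCTD-GWp was higher than Nbr(wt) in miR-1003-3p and miR-1006-3p and lower in miR-1007-3p, beside 20.2% and 10.5% of all arms. Against NbrCTD, NbrCTD-GWp was lower in miR-1007-3p and higher in miR-1006-3p and miR-1008-3p. Over all arms 35.1% were lower in that comparison and 3.51% higher, or 4 arms, of which these are 2. The miR-1005-3p call overlapped at 99%, and miR-1003-3p had log2 odds ratios of 0.34 for NbrCTD and 0.31 for NbrCTD-GWp against Nbr(wt), so that both calls were lost at a minimum of 0.5. For miR-1008-3p, likewise under that minimum, the log2 odds ratio was -0.35 for NbrCTD against Nbr(wt) and 0.35 for NbrCTD-GWp against NbrCTD.

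The 3p arm was the main product of the 8 mirtrons. It was the arm marked TRUE by the authors in all 32 values, and the 5p share, 5p reads over 5p and 3p reads, had a median over 7 precursors of 2.54% in Nbr(wt) cells, 1.83% in NbrCTD cells and 2.63% in NbrCTD-GWp cells, against 2.63% in nbrKO. The median over all 69 precursors with enough reads was 6.62% in Nbr(wt) cells, 6.07% in NbrCTD cells and 8.31% in NbrCTD-GWp cells, against 10.7% in nbrKO. This share does not depend on scaling.

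mir-1012 was the exception. Its 5p share was 18.8% in Nbr(wt) cells (17.6 to 20.1), 20.4% in NbrCTD cells (18.9 to 22.0) and 21.2% in NbrCTD-GWp cells (19.7 to 22.7), against 41.5% in nbrKO (40.1 to 42.9). The construct libraries lay close together and nbrKO far above them. The differences from nbrKO were -22.7 percentage points in Nbr(wt) cells (-24.6 to -20.8), -21.1 in NbrCTD cells (-23.1 to -19.0) and -20.3 in NbrCTD-GWp cells (-22.4 to -18.3), in each case the largest fall in points among the 69 precursors. On the log2 odds scale the fall ranked 6 in Nbr(wt) cells, 6 in NbrCTD cells and 5 in NbrCTD-GWp cells.

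The other 6 mirtrons with enough reads kept a 5p share under 10%. mir-1005 had 6.73% in Nbr(wt) cells, 2.10% in NbrCTD cells and 8.29% in NbrCTD-GWp cells, against 9.18% in nbrKO, on 6 to 21 5p reads. mir-1008 had 1.88% in Nbr(wt) cells, 1.83% in NbrCTD cells and 2.63% in NbrCTD-GWp cells, against 2.63% in nbrKO. mir-1006 had 2.54% in Nbr(wt) cells, 1.60% in NbrCTD cells and 2.02% in NbrCTD-GWp cells, against 1.73% in nbrKO. mir-1016 stayed between 3.11% and 4.19%, mir-1003 between 1.21% and 1.62% and mir-1007 between 0.326% and 0.485%.

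**Figure D5:**
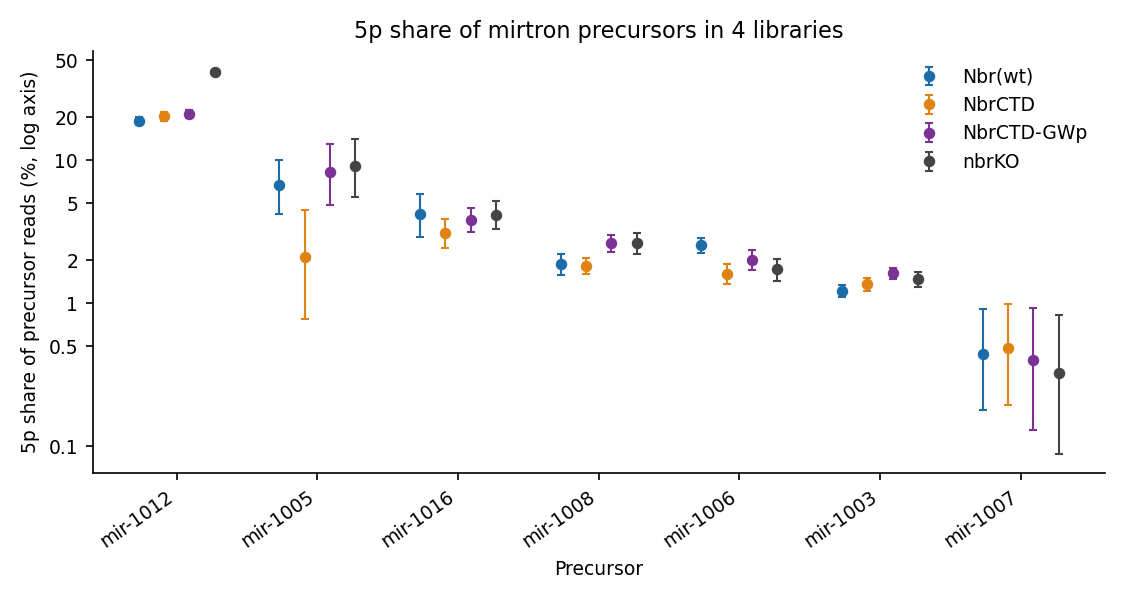
Share of a precursor's reads that come from its 5p arm, in percent on a log axis, for the 7 mirtrons with enough reads, with exact 95% intervals as bars. mir-1012 stands at 18.8% to 21.2% with the constructs and at 41.5% in nbrKO.

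Of the 7 mirtron precursors, 1 had a lower 5p share in Nbr(wt) cells than in nbrKO and 1, mir-1006, a higher one, where 39.1% and 17.4% of all 69 precursors were called. With untailed reads only, the call of mir-1006 was lost, and mir-1008 was lower as well in Nbr(wt) cells and in NbrCTD-GWp cells. With NbrCTD 3 were lower (mir-1005, mir-1008 and mir-1012) and 0 higher, beside 47.8% and 18.8%. With NbrCTD-GWp only mir-1012 was lower and 0 were higher, beside 33.3% and 21.7%. Between constructs, mir-1006 was lower in NbrCTD cells than in Nbr(wt) cells and 0 were higher (31.9% and 27.5% of all precursors). mir-1003 and mir-1008 were higher in NbrCTD-GWp cells than in Nbr(wt) cells and 0 were lower (37.7% and 13%). mir-1005 and mir-1008 were higher in NbrCTD-GWp cells than in NbrCTD cells and 0 were lower (33.3% and 23.2%).

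The 5′ ends of mirtron arms were mostly uniform. The listed 5′ end held 94.4% to 99.5% of the reads of 9 measured arms, near the median of 96.9% to 97.0% over all 114 arms. miR-1006-5p, at 86.2% to 91.8%, was lower, and miR-1016-3p was the lowest. The listed end of miR-1016-3p held 67.4% of its reads in Nbr(wt) cells (64.6 to 70.2), 69.9% in NbrCTD cells (68.3 to 71.5) and 71.2% in NbrCTD-GWp cells (69.7 to 72.7), against 73.0% in nbrKO (71.2 to 74.8). Another 364 reads in Nbr(wt) cells, 1004 in NbrCTD cells, 1076 in NbrCTD-GWp cells and 656 in nbrKO started elsewhere, and those 5′ ends have no row of their own. The tailed share and the level of miR-1016-3p, and the 5p share of mir-1016, therefore count only the leading end of this arm.

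The 5 arms with fewer than 100 reads in at least 1 library are given as reads. miR-1016-5p was tailed in 26 of 33 reads in Nbr(wt) cells, 61 of 75 in NbrCTD cells and 70 of 106 in NbrCTD-GWp cells, against 57 of 77 in nbrKO. The shares were 78.8% in Nbr(wt) cells (61.1 to 91.0), 81.3% in NbrCTD cells (70.7 to 89.4) and 66.0% in NbrCTD-GWp cells (56.2 to 74.96), against 74.0% in nbrKO (62.8 to 83.4). None of the 4 measured mirtron 5p arms passed 8.91%. miR-1010-3p had 24 reads in Nbr(wt) cells and 12 in NbrCTD cells, against 21 in nbrKO, at its downstream end, while in NbrCTD-GWp cells the listed end was 1 base upstream, with 11 reads. Of these reads, 10 were tailed in Nbr(wt) cells, 3 in NbrCTD cells, 9 in NbrCTD-GWp cells and 12 in nbrKO. miR-1005-5p had 6 to 21 reads, miR-1007-5p 4 to 7 and miR-1010-5p at most 3.

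Of 7 further mirtrons listed from background knowledge, mir-1009 and mir-1013 had a measured 3p arm. miR-1009-3p, with 17.1 to 37.5 miRNA RPM, had tails in 1.16% of reads in Nbr(wt) cells (0.466 to 2.37), 1.66% in NbrCTD cells (0.762 to 3.13) and 0.647% in NbrCTD-GWp cells (0.134 to 1.88). In nbrKO it had 0 tailed of 218 reads, with an exact interval up to 1.68%, and 3 counts of these reads would be 1.38%. miR-1013-3p had 1.83% in Nbr(wt) cells (0.838 to 3.44), 5.77% in NbrCTD cells (3.02 to 9.86) and 4.81% in NbrCTD-GWp cells (2.65 to 7.94), against 3.10% in nbrKO (0.851 to 7.75), with overlapping intervals. Outside that list, the annotation gives mir-2535b, a 71 nt intron of Abca3 like mir-1007, as a further whole-intron precursor, and it was named after its values were seen. miR-2535b-3p had 1.44% in Nbr(wt) cells (1.02 to 1.97), 1.70% in NbrCTD cells (1.04 to 2.61) and 2.64% in NbrCTD-GWp cells (1.83 to 3.69), against 2.32% in nbrKO (1.58 to 3.27). In value, all 3 arms lay below 6 of the 7 measured 3p arms of the 8 mirtrons in every library. The interval of miR-1013-3p nevertheless overlapped those of miR-1003-3p, miR-1006-3p and miR-1012-3p in NbrCTD cells. In NbrCTD-GWp cells it overlapped that of miR-1003-3p. The other 5 listed mirtrons had at most 52 reads in any library.

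The 5 most tailed arms in nbrKO outside both lists were miR-2497-3p, miR-2c-3p, miR-966-5p, miR-998-3p and miR-317-3p. miR-2497-3p alone exceeded miR-1008-3p, at 73.4% in Nbr(wt) cells, 68.8% in NbrCTD cells and 64.5% in NbrCTD-GWp cells, against 87.8% in nbrKO, on 121 to 218 reads. Its 5p arm started with the same 7 bases as miR-1007-5p.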

How the data were processed

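The authors deposited 1 table with 495 rows, 1 for each 5′ end of a miRNA arm, and per library 2 RPM columns (GM and PM), a fraction, an arm mark and a row type. Of the tools used, cutadapt 1.2.1 and HTSeq 0.9.1 are listed in the submitters' processing notes. The aligner, the rule for counting and the build were not given in the sources used here, and table positions were used only as distances. Per the labels, each library took 25 µg of total RNA, kept RNAs of 18 to 30 nt and used adapters with 4 random bases. Per the file headers and values, the deposited fraction is the share of an arm's reads at the listed 5′ end, and it gave whole arm totals for all 63 member values. GM was read as genome-matching and PM as tailed reads.

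The RPM values deposited by the authors were divided by the worth of 1 read. Within 0.01 read, 91.7% to 95.9% of values above 0 were whole, and so were all 116 member values. No count model was fitted, as each group has 1 library. Rows of 1 arm name and 1 starting sequence were added up over loci. A share was called different where exact 95% intervals did not overlap, for arms or precursors with at least 100 reads in every library. Log2 odds ratios added 0.5 reads. Levels were compared for 123 arms whose reads averaged 100 or more, with a pseudocount of 1. Differences have Newcombe intervals. The floor for a count of 0 is 3 counts. Python 3.11.15, scipy 1.17.1 and the Ensembl annotation of BDGP6.54 were used. Named arms are all arms of the 8 mirtrons, the other listed mirtrons and the 5 most tailed other arms. The members and lists were chosen with earlier results of these data known. The 4 row type columns were not used. Whether PCR duplicates were removed is not stated.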

Additional observations from a re-analysis of the deposited data

How the results depend on the processing

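Alternatives were the summed 5′ ends of an arm, minima of 30 and 500 reads, 99% intervals, a minimum log2 odds ratio of 0.5, the authors' RPM, median-of-ratios size factors, a pseudocount of 0.1, a 1.5-fold threshold, no filter on reads and GM reads only. Of the recomputed counts of mirtron arms or precursors, 139 stayed within 1.5 times the reported count and 17 did not. A count of 0 that stayed 0 was scored as unchanged. The share of all arms or precursors called at each alternative is not given beside these counts. They therefore describe the settings and are not results about the mirtrons. No measured mirtron arm had a second listed 5′ end, so summing 5′ ends could not change its counts. These are 12 for tailed share and 12 for 5p share, all among the 139. No called arm or precursor turned its direction. Requiring a log2 odds ratio of 0.5 left 3 arms lower in tailed share in NbrCTD-GWp cells than in nbrKO, 0 lower in NbrCTD cells than in Nbr(wt) cells, 1 higher in NbrCTD-GWp cells than in Nbr(wt) cells and 0 higher in NbrCTD-GWp cells than in NbrCTD cells. At 99% intervals the calls of miR-1007-3p (NbrCTD-GWp against nbrKO) and miR-1005-3p (NbrCTD against Nbr(wt)) were lost. Through miR-1008-3p, the arms higher in level in NbrCTD cells than in nbrKO became 1 with the authors' RPM, with size factors, at 1.5-fold and with GM reads only, and those higher than in Nbr(wt) cells became 1 with the authors' RPM and with size factors. At 1.5-fold, 2 arms were lower in NbrCTD-GWp cells than in nbrKO, 2 higher in them than in Nbr(wt) cells and 2 lower in them than in NbrCTD cells. Without a filter 2 were higher in NbrCTD-GWp cells than in Nbr(wt) cells. With GM reads only, 2 precursors were lower and 0 higher in 5p share in Nbr(wt) cells than in nbrKO, and 2 lower in NbrCTD-GWp cells than in nbrKO: mir-1008 joined mir-1012 in both, and mir-1006 was no longer called higher. Against nbrKO, the authors' RPM moved the median log2 fold of all arms by 0.18 for Nbr(wt), 0.04 for NbrCTD and 0.25 for NbrCTD-GWp, and size factors by 0.35 for Nbr(wt), 0.13 for NbrCTD and 0.18 for NbrCTD-GWp. The level calls of miR-1012-5p and miR-1016-3p held under every alternative tried for levels. No paired analysis was possible because each group holds 1 library, and for the same reason no replicate could be left out. Depth limits the arms with few reads, such as miR-1005-3p, whose tailed share in nbrKO has an interval of 1.60% to 7.93%. The cause of a changed call was not tested.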
